A study of Mus musculus with 6 samples.

Results

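The genes of cholesterol synthesis, of its regulators of the SREBP family and of the LXR receptors with their targets were followed in mouse macrophages exposed to yeast glucan particles. The group was chosen by name, with earlier results of these data known, and comprised 38 genes. A gene was taken as measured where a probe on the array carried a RefSeq accession of that gene. All 38 had such a probe (50 probes), of 20283 genes named in this way, and 34 of the 38 had a probe that passed the filter on dim signal, of 10948 genes that did.

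The cells were bone-marrow-derived macrophages of C57BL/6 mice aged 6 to 8 weeks, which the labels call polarized M2 (alternatively activated) cells without naming the polarizing agent. They were kept for 6 h in complete DMEM alone (medium) or in complete DMEM with WGP, whole glucan particles, which are yeast cell wall particles rich in beta-glucan. RNA was hybridised to 1-colour Agilent arrays, and 3 files were deposited per group. The file of replicate 3 in each group held the spot signals of replicate 1 at each of 44397 spots, so that replicates 1 and 2 were the independent arrays and n was 2 per group throughout. The labels do not say that the replicates were separate cultures or animals, so each p-value measures only the spread between these arrays, which may be technical. Each slide carried 1 medium and 1 WGP array, and the medium array sat at position 1 and the WGP array at position 3 each time, so that position and treatment cannot be told apart.

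A level is given below as log2 of a probe's processed signal minus log2 of the array's 75th percentile, and a change as WGP minus medium on that scale. Probe levels are not comparable between genes. The 75th percentile was 85.8 and 68.6 on the medium arrays and 59.2 and 56.1 on the WGP arrays, and the share of probes well above background was 46.6% to 50.7% in medium and 45.0% to 46.6% with WGP. Of 7 macrophage markers with a probe, 7 were well above background on all 4 arrays. Cd14 was called higher, and Mertk, Fcgr1 and Lyz2 were called lower. Their summed level was 10.49 to 10.53 in medium and 10.69 to 10.91 with WGP. A summed level is log2 of the summed unlogged levels, so the brightest probe weighs most. Here that was Csf1r, which was not called, at 10.08 and 9.99 in medium and 10.63 and 10.36 with WGP. Of 10 markers of alternative activation, 6 were well above background on 0 of the 4 arrays, among them Arg1 and Retnla, and 3 were lower with WGP, with a summed level of 4.39 to 4.65 in medium and 2.67 to 2.74 with WGP. Of 4 osteoclast markers, 3 were higher with WGP, with a summed level of 3.22 and 3.25 in medium and 5.25 and 5.34 with WGP. Of all tested genes, 23.2% were called higher and 17.4% lower. Among the markers of other cells, 1 of 6 dendritic cell genes was higher. Of these, 2 of 5 B cell, 1 of 6 fibroblast and 1 of 4 erythroid genes were lower. For 7 neutrophil and 5 T cell genes the count was 0 in either direction. These counts include untested genes, those that failed the filter. All 4 mast cell and basophil genes failed it, so 0 could be called. So did 4 dendritic cell, 3 B cell, 3 erythroid, 2 fibroblast and 2 T cell genes, and Ltf and Mpo among the neutrophil genes. The part of these marker changes in the results below was not tested, and in bulk RNA fewer cells of a type and less RNA per cell cannot be told apart.

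Cholesterol is built from acetyl units by way of mevalonate, farnesyl diphosphate and squalene. When sterols run low in the membrane of the endoplasmic reticulum, the escort protein SCAP carries the precursors of the transcription factors SREBP1 and SREBP2 to the Golgi, where they are cut and released to the nucleus, and they switch on the genes of sterol synthesis and uptake. When sterols are plentiful, INSIG proteins hold SCAP back, and oxysterols activate the nuclear receptors LXR-alpha and LXR-beta, which in macrophages drive genes of cholesterol export. Both programmes are thus known to respond to cell sterols, in opposite ways.

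SREBP factors bind promoters close to the start site, usually beside a box bound by the factor NF-Y. RefSeq promoter windows of build GRCm38.p6, from 250 bases before to 50 after the start, were at hand for 30 of the 38 genes. Sqle, Fdps, Fdft1, Stard4, Abcg1, Scd1, Scd2 and Npc1 had no window and were not searched. The 250 bases upstream of the start are printed 5′ to 3′ on the gene's strand for the 6 genes with the largest changes among those called whose window held a searched motif. Capitals mark matches to the SREBP element TCACNCCAC, the E-box CACGTG or the NF-Y box CCAAT, which reads as ATTGG where it lies on the opposite strand. The stretches are Idi1 at chr13:8885356-8885605 (+ strand), Insig1 at chr5:28071162-28071411 (+ strand), Hmgcs1 at chr13:119690101-119690350 (+ strand), Msmo1 at chr8:64733579-64733828 (- strand), Mvd at chr8:122443423-122443672 (- strand), Sc5d at chr9:42264301-42264550 (- strand).
Idi1: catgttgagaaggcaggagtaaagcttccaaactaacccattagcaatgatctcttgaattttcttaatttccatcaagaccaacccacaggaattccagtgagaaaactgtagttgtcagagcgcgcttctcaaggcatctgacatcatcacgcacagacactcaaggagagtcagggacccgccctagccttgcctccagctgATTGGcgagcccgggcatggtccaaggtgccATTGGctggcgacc
Insig1: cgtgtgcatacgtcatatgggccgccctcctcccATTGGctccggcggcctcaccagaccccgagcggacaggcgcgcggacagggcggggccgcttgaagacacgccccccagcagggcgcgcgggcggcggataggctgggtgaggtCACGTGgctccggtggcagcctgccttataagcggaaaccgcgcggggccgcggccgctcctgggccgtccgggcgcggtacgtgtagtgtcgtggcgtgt
Hmgcs1: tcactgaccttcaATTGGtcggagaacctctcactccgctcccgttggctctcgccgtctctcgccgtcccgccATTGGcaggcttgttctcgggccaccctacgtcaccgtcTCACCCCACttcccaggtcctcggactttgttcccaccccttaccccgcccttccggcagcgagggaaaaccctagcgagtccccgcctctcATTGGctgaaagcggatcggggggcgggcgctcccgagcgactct
Msmo1: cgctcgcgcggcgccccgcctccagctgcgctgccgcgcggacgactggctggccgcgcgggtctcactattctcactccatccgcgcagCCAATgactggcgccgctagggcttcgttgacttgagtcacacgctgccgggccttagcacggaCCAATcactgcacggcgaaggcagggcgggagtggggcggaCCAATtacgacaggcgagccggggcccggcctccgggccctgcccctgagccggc
Mvd: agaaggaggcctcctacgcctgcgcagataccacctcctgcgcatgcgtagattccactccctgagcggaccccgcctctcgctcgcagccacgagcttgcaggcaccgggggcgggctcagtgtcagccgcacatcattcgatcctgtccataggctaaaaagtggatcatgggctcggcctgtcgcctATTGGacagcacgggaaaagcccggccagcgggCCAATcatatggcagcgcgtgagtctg
Sc5d: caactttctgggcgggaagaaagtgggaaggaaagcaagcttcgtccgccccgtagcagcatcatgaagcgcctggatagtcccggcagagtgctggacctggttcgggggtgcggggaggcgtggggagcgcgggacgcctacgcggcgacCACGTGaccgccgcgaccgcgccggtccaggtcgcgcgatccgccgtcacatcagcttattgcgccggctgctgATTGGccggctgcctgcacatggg

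A CCAAT box on either strand lay in the window of 14 of 14 enzyme genes of the mevalonate and sterol arms that had a window, compared with 41.1% of all 27025 genes with a window and 37.4% of all 32851 windows. These 14 included Pmvk, Tm7sf2 and Ebp, which were not called, and Lss, Cyp51 and Dhcr7, which did not pass the filter. Of the 4 SREBP system genes with a window 3 held the box, as did 3 of 5 LXR target genes and 0 of 2 LXR receptor genes. The SREBP element was found in 1 of the 30 windows, that of Hmgcs1, with its first base at position -137 from the start, and in 1.44% of all genes. The E-box was found in 6 of 30 windows (Hsd17b7, Sc5d, Dhcr7, Insig1, Scap and Abca1) and in 8.09% of all genes. The LXR element, searched as AGGTCA repeated in the same direction after 4 bases, and the same pattern without its first base, were in 0 of 30 windows and in 4 and 6 of all genes. The searches covered both strands, and each match is a description of the letters in the window.

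With WGP, 14 of the 19 tested genes of sterol synthesis and the SREBP system rose and 0 fell. Of the 6 genes listed as LXR targets, 0 rose and 1 fell. Each gene was given 1 role, so genes under other roles, among them Srebf1, Scd1, Scd2 and Fasn, were not counted as LXR targets here. Of those named, Srebf1, counted among the 14, and Scd2 rose, and Scd1 and Fasn were not called. Of 10 LXR partners, corepressors and further targets listed apart from the 38, 1 rose and 1 fell. The median change of the 19 was 1.36 as fitted and 0.99 with Hsd17b7, which was not above background in medium, at its lower bound. Without Hsd17b7, 13 of 18 rose, with a median of 1.17. Of the 34 genes tested, 20 rose and 1 fell at an adjusted p under 0.05 in limma, which is 58.8% and 2.94%, compared with 23.2% and 17.4% of the 10948 genes tested. In either direction 21 of 34 (61.8%) were called, against 40.6% of all genes, and 11 (32.4%) were called with a fitted change of at least 2-fold, or 10 with Hsd17b7 at its bound, against 14.7%. The median change of the 34 was 0.71 on the log2 scale, beside 0.028 for all tested genes. Leaving out Hsd17b7, 19 of 33 rose, with a median of 0.70. The arrays of the groups did not overlap for 30 of the 34 (88.2%), against 75.1% of all genes. Scaling to the array's median in place of the 75th percentile shifted the median of all genes to 0.19, with 22 of the 34 higher and 0 lower, and moved the share of higher genes among all those called from 57.1% to 72.7%. Calls were fewer when 1 array was left out, among all genes as among these. Of the 34, 13 rose without WGP replicate 1 and 11 without WGP replicate 2, with 20.6% of all genes called each time. Without medium replicate 1 or medium replicate 2, 17 rose, with 30.0% and 26.1% of all genes called, and 0 fell in each of these 4 fits. The array left alone in its group is then assumed to vary like the pair in the other. Without the filter on dim probes 11 of 38 rose, at a share called of 7.56% over 20274 genes, and with only probes above background on all 4 arrays 21 of 31 rose, at a share called of 44.5% over 9882 genes. The other 3 of the 34, Hsd17b7, Scd1 and Fasn, passed the filter only through the WGP group. With the replicate block, 17 of 34 rose and 1 fell.

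The sizes of the changes differed with normexp. That setting used the spots' median signal, another background correction and an added offset of 50, and the part of each was not tested. The median change of the 21 called genes was then 0.52 in place of 1.36. The change of 10 of them was smaller by over 1.5 times. Mvd came to 0.86, Srebf1 to 0.34, Srebf2 to 0.39, Hsd17b7 to 0.38, Scd2 to 0.44 and Npc1 to 0.40, and these 6 stayed called. Mvk came to 0.19 (adjusted p = 0.112), Nsdhl to 0.22 (adjusted p = 0.0650), Acaca to 0.20 (adjusted p = 0.107) and Soat1 to 0.23 (adjusted p = 0.0858), and these 4 were no longer called in limma. With normexp 1 gene each of the mevalonate and the sterol arm was called lower, Fdft1 (-0.35, adjusted p = 0.0230) and Ebp (-0.24, adjusted p = 0.0484). Pltp was also called lower (-0.40, adjusted p = 0.0205), as was Abcg1 (-0.63, adjusted p = 0.00069).

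**Figure D1:**
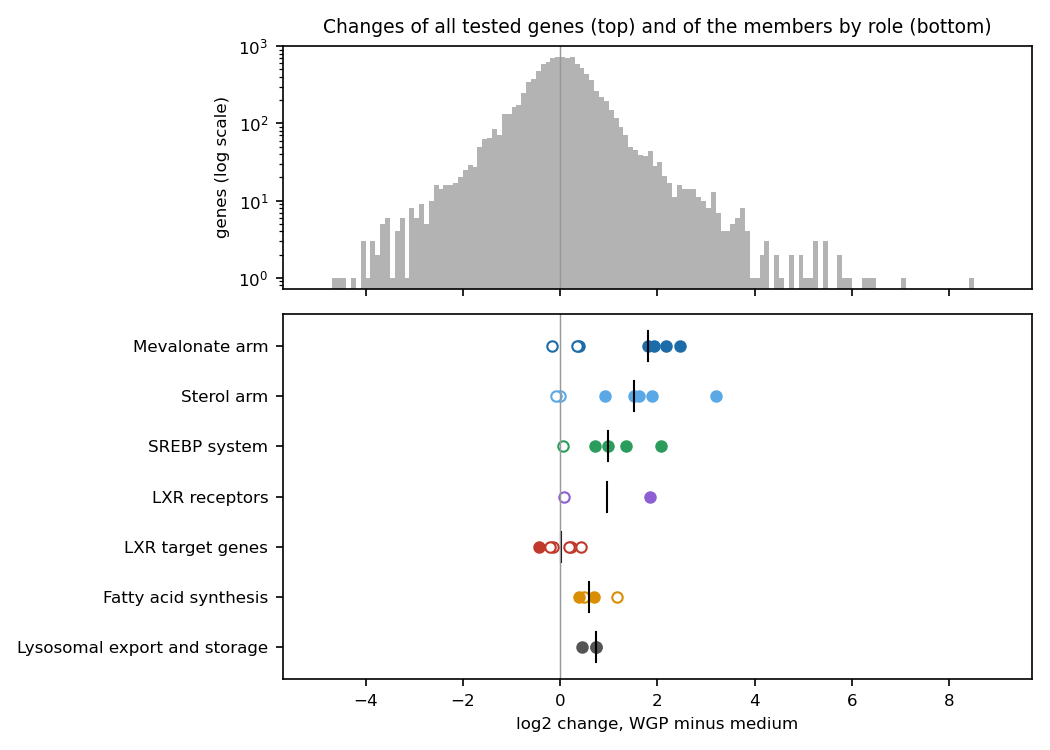
The upper panel is a histogram of the log2 change (WGP minus medium) of the 10948 tested genes, with the number of genes on a log scale, and the lower panel shows each of the 34 tested member genes by role, filled where the adjusted p was under 0.05, with a black bar at the median of the role. The median of the mevalonate arm (1.81) lies to the right of the bulk of all genes, as does that of the sterol arm (1.52 as fitted and 0.92 with Hsd17b7 at its lower bound), and that of the LXR target genes (0.010) lies at its centre.

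In the mevalonate arm, which leads from acetyl units to squalene, 5 of 7 enzyme genes rose and 0 fell. The share that rose was 71.4%, beside 23.2% of all tested genes, and the median change was 1.81. Idi1, the isomerase of isopentenyl diphosphate, stood at -0.26 and -0.28 on the medium arrays and at 2.28 and 2.10 with WGP. The WGP arrays lay far above the medium arrays, a 5.48-fold rise (change of 2.46 ± 0.11, SE, adjusted p = 0.00144). Fdps, which makes farnesyl diphosphate, went from 1.83 and 1.96 to 4.02 and 4.11, a 4.51-fold rise (2.17 ± 0.10, SE, adjusted p = 0.00156). Hmgcs1, the synthase of the pathway's HMG-CoA, went from 2.54 and 2.39 to 4.33 and 4.48, a 3.83-fold rise (1.94 ± 0.12, SE, adjusted p = 0.00216). Mvd, the decarboxylase that yields isopentenyl diphosphate, went from -1.28 and -1.21 to 0.59 and 0.53, a 3.50-fold rise (1.81 ± 0.10, SE, adjusted p = 0.00178). In these 4 genes both WGP arrays lay above both medium arrays, and the change was 1.74 or more on each slide.

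The 2 kinases that act before Mvd had small changes. Mvk, mevalonate kinase, was at 3.33 and 3.37 in medium and at 3.69 and 3.79 with WGP, a 1.31-fold rise (0.39 ± 0.10, SE) that just passed the test (adjusted p = 0.0409). The call was lost without any 1 of the 4 arrays (adjusted p of 0.0971 to 0.197), with the replicate block (adjusted p = 0.0648), with quantile normalization (0.20, adjusted p = 0.188) and as the mean of its probes (0.12, adjusted p = 0.432). Pmvk, phosphomevalonate kinase, was at 3.73 and 3.77 in medium and at 4.06 and 4.13 with WGP and just missed it (0.34 ± 0.10, SE, adjusted p = 0.0509). Pmvk passed in limma with median scaling (0.51, adjusted p = 0.0443) and with the deposited log2 values (0.36, adjusted p = 0.0458). It also passed with only probes above background on all 4 arrays (adjusted p = 0.0400) and with all 6 files as samples, and missed in the other 10 of 14 settings. The changes of these neighbours in the pathway were thus alike in size and lay on either side of the threshold.

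Fdft1, squalene synthase, which commits the pathway to sterols, gave opposite readings on its 2 probes. The brighter probe, which stood for the gene, was at 2.17 and 2.06 in medium and at 1.93 and 1.96 with WGP (-0.17 ± 0.10, SE, adjusted p = 0.228). The dimmer probe was at -0.29 and -0.44 in medium and at 1.36 and 1.52 with WGP, a 3.50-fold rise (1.81 ± 0.13, SE) at an adjusted p of 0.00408 in a limma fit over all kept probes. Both probes carry the same accession and were well above background on all 4 arrays, and the difference between them was not tested. The mean of both probes gave a rise of 0.82 (adjusted p = 0.00899), while with normexp the brighter probe was called lower (-0.35, adjusted p = 0.0230 in limma).

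In the sterol arm, from squalene to cholesterol, 5 of the 7 genes that passed the filter rose and 0 fell. The share that rose was 71.4%, beside 23.2% of all tested genes. The median change was 1.52 as fitted, which is the value of Hsd17b7, and 0.92 with that gene at its lower bound. Without Hsd17b7, which passed the filter only through the WGP group, 4 of 6 rose, with a median of 1.27. Sqle, squalene epoxidase, an oxygen-dependent control point of the arm, had the largest change of the 34. It stood at 1.15 on both medium arrays and at 4.40 and 4.29 with WGP, a 9.16-fold rise (3.20 ± 0.098, SE, adjusted p = 0.00129), and ranked 106 among the 10948 genes by the size of its change. Msmo1, a methylsterol oxidase, went from 2.26 and 2.31 to 4.15 and 4.20, a 3.70-fold rise (1.89 ± 0.094, SE, adjusted p = 0.0016). Sc5d, a sterol desaturase, went from 1.71 and 1.59 to 3.27 and 3.26, a 3.07-fold rise (1.62 ± 0.10, SE, adjusted p = 0.00221). For these 3 genes the arrays of a group lay close together and the groups far apart.

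Nsdhl and Hsd17b7, which act with Msmo1 in removing methyl groups from the ring, rose with more spread. Nsdhl, a sterol dehydrogenase, was at -1.57 and -2.17 in medium and at -1.03 and -0.86 with WGP, a 1.90-fold rise (0.92 ± 0.24, SE, adjusted p = 0.0417). It was no longer called with the replicate block (adjusted p = 0.0536), nor when medium replicate 2, WGP replicate 1 or WGP replicate 2 was left out (adjusted p of 0.0627, 0.0930 and 0.130). In the limma fit over probes this probe just missed the threshold (adjusted p = 0.0506) and the other passed it (adjusted p = 0.021). The other Nsdhl probe went from -3.47 and -2.81, not well above background, to -1.76 and -1.67. It was kept only through the WGP group, where it was high. Hsd17b7, a ketosteroid reductase, was not well above background in medium (-3.39 and -4.25) and was above it with WGP (-2.14 and -2.45). A lower bound gave each medium array the level of its dimmest probe above background, or the Hsd17b7 probe's own level where higher. By that bound, which was not tested, Hsd17b7 was at least 1.89-fold higher, while its fitted change was 1.52 (adjusted p = 0.0283 in limma). It passed the filter only through the WGP group, and leaving out WGP replicate 1 or WGP replicate 2 ended the call (adjusted p of 0.0900 and 0.0613).

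Ebp and Tm7sf2 did not pass the test. Ebp, a sterol isomerase, was at 6.24 and 6.38 in medium and at 6.22 and 6.25 with WGP (-0.079 ± 0.10, SE, adjusted p = 0.576), and its groups overlapped. Tm7sf2, a sterol reductase whose step the lamin B receptor Lbr can also carry out, was at 0.86 and 0.39 in medium and at 0.64 and 0.60 with WGP (-0.0054 ± 0.19, SE, adjusted p = 0.984). Both signs turned with median scaling (0.086 and 0.16), and Ebp was called lower with normexp (-0.24, adjusted p = 0.0484 in limma). The cyclase Lss, the lanosterol demethylase Cyp51 and the last enzyme, Dhcr7, did not pass the filter and were not tested. Cyp51 was at -5.65 and -5.27 in medium and at -4.02 and -3.45 with WGP, not well above background on any array. Lss was at -5.67 and -4.41 in medium and at -2.72 and -3.35 with WGP, and Dhcr7 at -4.49 and -3.20 in medium and at -3.65 and -2.50 with WGP, each above background on 1 WGP array.

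**Figure D2:**
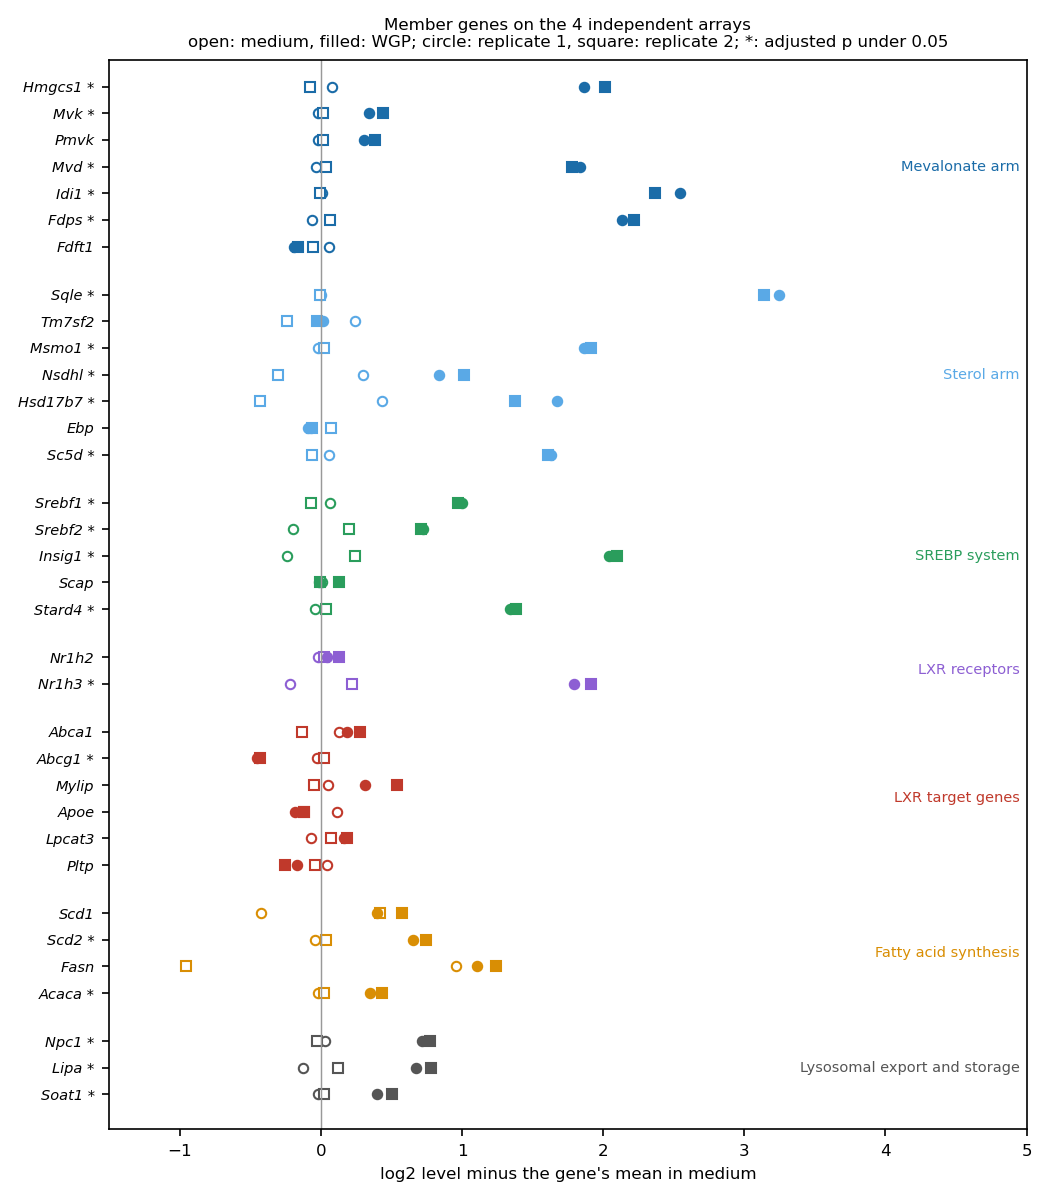
Each row is a tested member gene and each point an array, drawn as its log2 level minus the gene's mean in medium, with open symbols for medium, filled symbols for WGP, circles for replicate 1 and squares for replicate 2, and an asterisk for an adjusted p under 0.05. The WGP arrays of Sqle, Idi1, Fdps, Insig1 and Hmgcs1 lie near 2 or more, while those of the LXR target genes lie close to the medium mean.

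Of the 5 genes of the SREBP system, 4 rose (80%, beside 23.2% of all tested genes) and 0 fell, with a median change of 0.99. Insig1, the retention factor that is itself a classical SREBP target, stood at 1.13 and 1.61 in medium and at 3.41 and 3.47 with WGP, a 4.19-fold rise (2.07 ± 0.19, SE, adjusted p = 0.00433). Stard4, a carrier that moves cholesterol between membranes, went from 0.84 and 0.92 to 2.22 and 2.27, a 2.57-fold rise (1.36 ± 0.10, SE, adjusted p = 0.00274). A further Stard4 probe was well above background on 0 of the 4 arrays.

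The genes of the transcription factors themselves also rose. Srebf1, which encodes SREBP1, went from -1.84 and -1.98 to -0.91 and -0.94, a 1.98-fold rise (0.99 ± 0.10, SE, adjusted p = 0.00543). Srebf2, which encodes SREBP2, the main driver of sterol synthesis, was at -0.43 and -0.025 in medium and at 0.50 and 0.48 with WGP, a 1.64-fold rise (0.71 ± 0.17, SE, adjusted p = 0.0333). Leaving out medium replicate 1, WGP replicate 1 or WGP replicate 2 ended the call (adjusted p of 0.0536, 0.110 and 0.104), and its other probe rose by 0.93 ± 0.12 (SE, adjusted p = 0.0119 over probes). Scap, the escort protein, was at 2.15 and 2.13 in medium and at 2.13 and 2.27 with WGP (0.058 ± 0.10, SE, adjusted p = 0.679), with overlapping groups and a sign that turned with quantile normalization (-0.057) and normexp (-0.13). Each array measures mRNA, so the cleavage that activates SREBP proteins was not measured.

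Of the 2 LXR genes, 1 rose and the other was not called. Nr1h3, which encodes LXR-alpha, stood at 2.41 and 2.85 in medium and at 4.42 and 4.55 with WGP, a 3.61-fold rise (1.85 ± 0.18, SE, adjusted p = 0.00488). Its other probe rose by nearly the same amount (1.83 ± 0.16, SE, adjusted p = 0.00586 over probes). Nr1h2, which encodes LXR-beta, was at 5.69 and 5.73 in medium and at 5.75 and 5.83 with WGP (0.087 ± 0.10, SE, adjusted p = 0.51), and its sign turned with quantile normalization (-0.073) and normexp (-0.086). The difference between their changes was not tested.

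Of the 6 genes listed as LXR targets, 0 rose and 1 fell (16.7%), beside 23.2% and 17.4% of all tested genes. The difference from those shares was not tested. The list had a median change of 0.010 and changes between -0.44 and 0.43. At an unadjusted p under 0.05 in limma, 1 was higher and 1 lower. Abcg1, which exports cholesterol to HDL particles, was at 4.61 and 4.66 in medium and at 4.18 and 4.20 with WGP, 1.36-fold lower (-0.44 ± 0.093, SE, adjusted p = 0.0261). With normexp the list stood at 0 higher and 2 lower (Abcg1 and Pltp), with a median of -0.16. Quantile normalization gave 0 higher and 1 lower, with a median of -0.12. With median scaling the list had a median of 0.18 and stood at 1 higher (Mylip) and 0 lower, since the Abcg1 call was lost (-0.28, adjusted p = 0.174). That call was also lost without any 1 of the 4 arrays (adjusted p of 0.0618 to 0.132). Abca1, which exports cholesterol to lipid-poor apolipoproteins, was at 2.20 and 1.94 in medium and at 2.26 and 2.35 with WGP (0.23 ± 0.13, SE, adjusted p = 0.227), with 0.054 on slide 1 and 0.41 on slide 2. Mylip, a ubiquitin ligase that limits lipoprotein uptake, was at -0.20 and -0.30 in medium and at 0.064 and 0.29 with WGP (0.43 ± 0.12, SE, adjusted p = 0.0573). It passed with median scaling (0.59, adjusted p = 0.0415) and where only probes above background on all 4 arrays were tested (adjusted p = 0.0420). Its other probe differed by -0.021 ± 0.11 (SE, adjusted p = 0.899 over probes).

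The other genes of that list, Apoe, Pltp and Lpcat3, also missed the threshold. Apoe, the apolipoprotein that macrophages secrete, was at 10.37 and 10.13 in medium and at 10.06 and 10.13 with WGP (-0.15 ± 0.12, SE, adjusted p = 0.375), and its sign turned with median scaling (0.013). Pltp, the phospholipid transfer protein, was at 7.33 and 7.24 in medium and at 7.12 and 7.03 with WGP (-0.21 ± 0.10, SE, adjusted p = 0.164). With normexp Pltp was called lower (-0.40, adjusted p = 0.0205 in limma). Lpcat3, which puts polyunsaturated chains into phospholipids, was at 3.01 and 3.16 in medium and at 3.25 and 3.27 with WGP (0.17 ± 0.10, SE, adjusted p = 0.247), and its sign turned with quantile normalization (-0.016) and normexp (-0.0021). These values leave changes of this size neither shown nor shown to be absent at n = 2.

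Of the 4 genes of fatty acid synthesis and desaturation, 2 rose (50%, beside 23.2% of all tested genes) and 0 fell. Their median change was 0.59. Fasn and Scd1 passed the filter only through the WGP group, and the median of the other 2 was 0.54. Scd2, a stearoyl-CoA desaturase, was at 0.38 and 0.46 in medium and at 1.08 and 1.17 with WGP, a 1.62-fold rise (0.70 ± 0.10, SE, adjusted p = 0.0106) that was lost without WGP replicate 2 (adjusted p = 0.0625). Acaca, acetyl-CoA carboxylase, rose 1.31-fold, from 2.02 and 2.07 to 2.39 and 2.48 (0.39 ± 0.10, SE, adjusted p = 0.0396). That call was lost with the replicate block (adjusted p = 0.0639), with quantile normalization (adjusted p = 0.0881), as the mean of its probes (0.17, adjusted p = 0.269) and without any 1 of the 4 arrays (adjusted p of 0.0918 to 0.192). Its 2 dimmer probes differed by 0.067 and 0.065. Fasn, fatty acid synthase, was at -2.76 and -4.67 in medium and at -2.61 and -2.47 with WGP (1.17 ± 0.67, SE, adjusted p = 0.226). Its medium arrays lay far apart, and 1 of them was well above background. Without medium replicate 1 the Fasn change was 2.13. It then rested on medium replicate 2 alone, at -4.67, below that array's lowest level above background (-3.04). With normexp the Fasn change was 0.30 and was called (adjusted p = 0.0303 in limma). Scd1, the other desaturase, was at -3.14 and -2.29 in medium and at -2.31 and -2.14 with WGP (0.49 ± 0.31, SE, adjusted p = 0.272), with 1 of 2 medium arrays above background, and it passed without medium replicate 2 (0.91, adjusted p = 0.0360).

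The 3 genes of lysosomal cholesterol release and storage that passed the filter rose, by 1.37-fold to 1.68-fold. Among all tested genes, 23.2% rose. Npc1, the lysosomal cholesterol exporter, was at 1.33 and 1.27 in medium and at 2.02 and 2.08 with WGP (0.75 ± 0.10, SE, adjusted p = 0.00839), a call that ended when WGP replicate 2 was left out (adjusted p = 0.0525). Lipa, the lysosomal acid lipase that frees cholesterol from its esters, was at 6.17 and 6.41 in medium and at 6.97 and 7.07 with WGP (0.73 ± 0.13, SE, adjusted p = 0.0175). It did not pass when WGP replicate 1 or WGP replicate 2 was left out (adjusted p of 0.0623 and 0.0793). Soat1, which esterifies cholesterol for storage, was at 3.36 and 3.41 in medium and at 3.78 and 3.89 with WGP (0.45 ± 0.10, SE, adjusted p = 0.0295), a call lost without any 1 of the 4 arrays (adjusted p of 0.0767 to 0.150) and with quantile normalization (0.27, adjusted p = 0.105). Ch25h, which makes an oxysterol, was well above background on 0 of the 4 arrays (-5.64 and -5.28 in medium, -5.34 and -5.23 with WGP) and was not tested.

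Among the 10 genes with more than 1 kept probe, Mvk and Mylip also had probes of opposite sign besides Fdft1. The other Mvk probe differed by -0.15 ± 0.15 (SE, adjusted p = 0.477 over probes), and the other Pmvk probe by 0.049 ± 0.10 (SE, adjusted p = 0.726). In the same fit the brighter probes of Mvk (adjusted p = 0.0546) and Acaca (adjusted p = 0.0534) just missed the threshold. The dimmer Tm7sf2 probe differed by -0.45 ± 0.13 (SE, adjusted p = 0.0655). The dimmer Hsd17b7 probe was not well above background in medium and was at least 2.57-fold higher with WGP, a bound that was not tested. Its fitted change of 2.49 missed the threshold (adjusted p = 0.0648). In Nr1h3, Srebf2, Nsdhl and Hsd17b7 the probes of a gene had the same sign.

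**Figure D3:**
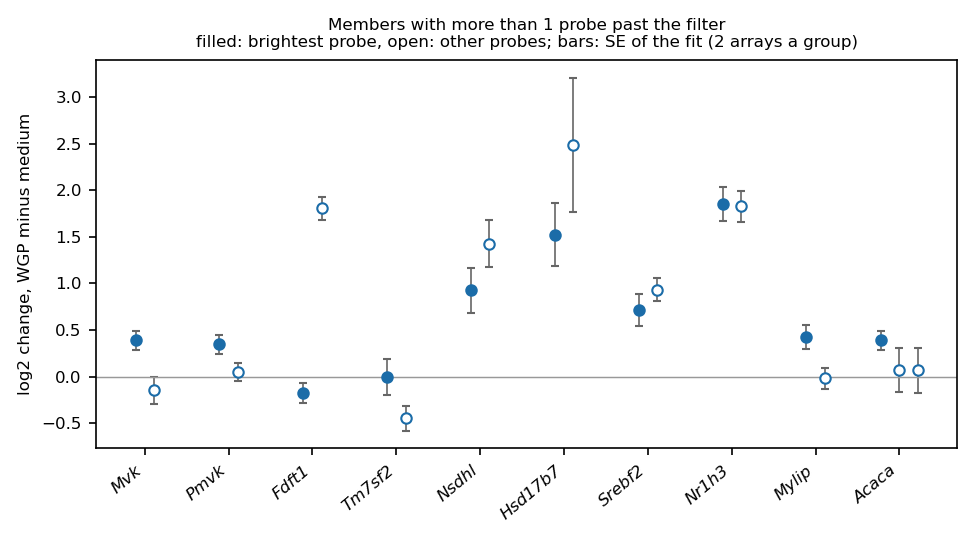
The log2 change (WGP minus medium) is drawn with its SE for each probe of the 10 member genes with more than 1 probe past the filter, filled for the brightest probe, which stands for the gene, and open for the others, with both Hsd17b7 probes at their fitted values, not their bounds. The probes of Nr1h3 lie at 1.85 and 1.83, whereas those of Fdft1 lie at -0.17 and 1.81.

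Of 63 further genes of these pathways, listed by function with earlier results of these data known, 48 passed the filter. Of these, 13 rose and 5 fell (37.5% called, beside 40.6% of all genes), with a median change of 0.20. Hsd17b12, which acts in fatty acid elongation, rose 2.16-fold (adjusted p = 0.00584). Insig2, the second retention factor, rose 1.29-fold (adjusted p = 0.0396). It was not called with the replicate block (adjusted p = 0.0711), with quantile normalization (adjusted p = 0.0555), with normexp (0.19, adjusted p = 0.110) or without any 1 of the 4 arrays (adjusted p of 0.0856 to 0.173). Lbr, the lamin B receptor, was 3.53-fold lower, from -0.51 and 0.076 to -1.72 and -2.35 (adjusted p = 0.016), a call lost without medium replicate 2 (adjusted p = 0.0603), and the change was -0.47 with normexp.

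In the fatty acid genes of that list, Me1, the malic enzyme that supplies NADPH, went from -2.49 and -2.69 to 1.08 on both WGP arrays, a 12.7-fold rise (3.67 ± 0.12, SE, adjusted p = 0.00129), with 1 of 2 medium arrays above background. Fads2, a desaturase, rose 5.14-fold (adjusted p = 0.0061 in limma), also with 1 of 2 medium arrays above background. Me1 and Fads2 passed the filter only through the WGP group, where they were high. Elovl1, an elongase, rose 2.04-fold (adjusted p = 0.00696 in limma). Of 10 LXR partners, corepressors and further targets, 1 rose (Smpdl3a, 1.87-fold, adjusted p = 0.00595) and 1 fell (Rxrb, 1.42-fold lower, adjusted p = 0.0191). In oxysterol metabolism, Cyp27a1, which makes an oxysterol ligand of LXR in mitochondria, was at -0.28 and -0.20 in medium and not well above background with WGP (-3.42 and -4.17). It was at least 8.58-fold lower, a bound that was not tested, and the fitted change had an adjusted p of 0.00322 in limma. Cyp27a1 passed the filter only through the medium group, where it was high. Hsd3b7, which acts later on the same route to bile acids, rose 3.05-fold, from 4.33 and 4.15 to 5.86 and 5.84 (adjusted p = 0.00264). Mid1ip1 and Scarb1 also fell (1.75-fold lower, adjusted p = 0.0166, and 1.69-fold lower, adjusted p = 0.0102) and, like Rxrb, are named to complete the 5 genes that fell, after their values were seen. The Rxrb call was lost without any 1 of the 4 arrays (adjusted p of 0.0585 to 0.109) and with median scaling (-0.35, adjusted p = 0.109). Mid1ip1 did not pass when WGP replicate 1 or WGP replicate 2 was left out (adjusted p of 0.0572 and 0.0724). Scarb1 did not pass when WGP replicate 2 was left out (adjusted p = 0.0564) or as the mean of its probes (-1.45, adjusted p = 0.0535). With normexp the changes of Me1, Fads2, Cyp27a1 and Scarb1 were 1.48, 0.60, -0.76 and -0.45, and these 4 stayed called.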

How the data were processed

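Total RNA was amplified and labelled with Cy3 (1 colour), per the labels' protocols, and, per the submitters' processing notes, Agilent Feature Extraction 10.7.3 read the scans. The deposited intensity used, the processed signal, is background-subtracted and spatially detrended, with no normalization between arrays, per the file headers. The deposited value table of log2 values was used as an alternative. After centring each probe it came within 0.00996 of the values used here at each of 39394 probes. Its column medians were -0.0145, 0.164 and 0.103 for medium 1 to 3 and 0.0997, 0.130 and 0.100 for WGP 1 to 3, and the baseline of its centring is unknown.

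In medium, the processed signal of replicate 3 equalled the mean of replicates 1 and 2 to within 0.695%, and with WGP it was 1.30 times that of replicate 1 to within 0.498%. Neither was used, a choice made from earlier work on these files. Spots left out were the 1377 controls and, on each array, 118 to 183 marked as outliers. Saturation was marked at 0 spots. Log2 signals minus the array's 75th percentile were averaged per probe, and 26761 of 39429 probes were named by accession in a RefSeq table of GRCm38.p6. Since the header names an older build for the array, coordinates are given only for RefSeq promoters. A probe was kept if, on both arrays of a group, at least 0.5 of its spots were well above background. The brightest kept probe stood for its gene.

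The comparison used limma 3.58.1 (lmFit, eBayes; R 4.3.3) across the 10948 genes, with Benjamini-Hochberg adjustment and a threshold of 0.05, on 2 residual and 2.19 prior degrees of freedom. The members and lists were chosen with earlier results of these data known. All members are accounted for, and of the other pathway genes those with the 12 largest changes among those called, with a few chosen whatever their values, among them Insig2 and Cyp27a1, were to be named. Some of these are not reported here. Marker lists for macrophages, alternative activation, dendritic cells, neutrophils, B cells, T cells, fibroblasts, mast cells and basophils, erythroid cells and osteoclasts were measured. The number of arrays limits the precision. Slides paired the arrays of a replicate number per the file headers, and same-slide deviations from the group mean had a correlation of 0.14.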

Additional observations from a re-analysis of the deposited data

How the results depend on the processing

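Of the 21 called genes, 11 kept direction and call under all 14 other settings: Hmgcs1, Mvd, Idi1, Fdps, Sqle, Msmo1, Sc5d, Srebf1, Insig1, Stard4 and Nr1h3. The other 10 lost the call in at least 1 setting, each of them with no filter, and 9 of 13 genes not called passed in at least 1. In 4 of the settings 1 array stood alone in its group and took its spread from the other group, so a call lost there is also a call tested on fewer samples. The count of higher members was 11 with no filter on dim probes, and 11 to 17 without 1 array. The count of lower members was 0 with median scaling, with no filter and without any 1 array, 4 with normexp and 3 with all 6 files as samples. Of the other pathway genes, 8 rose and 1 fell with no filter, 23 and 10 with all 6 files, and 8 fell with normexp. Without 1 array 9 to 10 of them rose and 2 to 5 fell. Over all genes, 895 rose and 637 fell with no filter, 4115 and 3338 with all 6 files, and 1198 fell with median scaling. Without 1 array 1186 to 1977 rose and 1037 to 1306 fell. All 6 files counts copied arrays as samples, and having no filter raises the genes tested to 20274. Elsewhere the cause was not tested. With the slide as the replicate block, 17 members rose and 1 fell, and 2270 and 1817 of all genes. The block ended the calls of Mvk, Nsdhl, Acaca and Insig2 only, among the pathway genes named.

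The direction turned in genes that were not called. Fdft1 rose by 0.82 as the mean of its probes. Tm7sf2 turned to 0.16 (median scaling), 0.0064 (the deposited table), and 0.23 and 0.015 (without medium replicate 1 and WGP replicate 2), within a range of -0.24 to 0.23 without 1 array. Median scaling turned Ebp to 0.086 and Apoe to 0.013. Quantile normalization and normexp turned Scap to -0.057 and -0.13, Nr1h2 to -0.073 and -0.086, and Lpcat3 to -0.016 and -0.0021. Scap ranged from -0.011 to 0.13 without 1 array, with the lowest value without WGP replicate 2. Naming probes by a gene name column was not run, since the scanner files used here have none, and normexp used the median signal for lack of a mean signal, as chosen after seeing the data, as was the fit over probes.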
